A study of Komagataella phaffii CBS 7435 with 54 samples.

Results

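Glucose-limited retentostat cultures of Pichia pastoris sampled on day 16 (380 h of run time) were compared with retentostat cultures sampled on day 5 (116 h). The comparison covers the long middle phase of the retentostat run, on the approach to near-zero growth. By the paper's estimates the growth rate was still declining between these days, so run time and growth rate changed together. It rests on the 12 arrays whose titles give a retentostat run time of 380 h or 116 h, out of 54 arrays in the series. Both days had 6 arrays, which form 3 numbered replicates of 2 dye-swapped arrays, and together they make up 6 of the 27 replicates of the series. The other conditions were retentostat days 1, 3 and 23 (21 h, 65 h and 545 h) and chemostats at dilution rates of 0.1, 0.075, 0.05 and 0.025 per h. The labels give the strain as CBS 7435. By the paper's methods the cultures were of a derivative without FLO8, which encodes a transcription factor of flocculation and filamentous growth. No culture with intact FLO8 was compared, so the changes below refer to the deletion background. Whether the cells of the reference pool carried FLO8 is not given in the sources used here. On each array, labelled RNA of a culture competed with a reference pool that mixed cells from several carbon sources, media, growth phases and stresses. All levels are therefore log2 ratios of culture over pool, and a fold change is the difference of these ratios between 2 days.

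A retentostat is a chemostat whose outflow passes a filter that holds back the cells. Biomass then builds up on a restricted glucose feed, the glucose available to each cell declines, and the growth rate approaches zero while the cells stay alive. Little of the glucose is then left for new biomass, since cells must first replace damaged proteins and RNA and keep their ion pumps running. P. pastoris is a methylotrophic yeast that is widely used for protein secretion, and slow growth is the usual state in its production processes.

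The arrays of both days were of similar quality. The median culture signal ranged from 1515 to 4518.5 scanner units on day 16 and from 1822 to 4608 on day 5. In the culture channel, between 93.8 and 96.7% of spots stood well above background on day 16, and between 93.2 and 96.9% on day 5. The median standard deviation (SD) between the 3 replicates of a day was 0.0581 on day 16 and 0.0535 on day 5 on the log2 scale.

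The 6 arrays of each day were divided into 2 sets of 3, by the split of this size with the largest mean squared difference. The size of the sets was therefore imposed, and some split is always found. The sets so found cut across the replicate numbers. On day 16, both arrays of replicate 1 went with the Cy5 array of replicate 2, and both arrays of replicate 3 went with the Cy3 array of replicate 2. After removal of the mean of the day and of a dye effect, the 2 arrays of day 16 replicate 2 correlated across 5265 probes at r = -0.65, against 0.43 for replicate 1 and 0.16 for replicate 3. On day 5 it was replicate 3 whose 2 arrays fell apart, with r = -0.68, against 0.32 for replicate 1 and 0.27 for replicate 2. Removal of the mean of the day by itself pushes such correlations below 0. Between arrays of the same set they ranged from -0.21 to 0.61 on day 16 and from 0.048 to 0.58 on day 5. Between arrays of different sets they ranged from -0.65 to -0.22 and from -0.68 to -0.35. Arrays of both sets lay on the same slide on either day. In 7 of the 9 conditions the best split had a mean squared difference more than 1.5 times that of the next best. How often this would occur among arrays without sets was not tested. Choice of the split by its difference also favors higher correlations within sets than between them, so these values describe the split and do not test it. The paper describes 2 independent retentostat runs that lasted beyond the last sampling day, while the labels number 3 replicates and name no culture for any of them. Samples of the different days may therefore be repeated samples of the same runs, which the fit treats as independent. The n = 3 and the SD given below therefore refer to numbered replicates and not to 3 separate cultures. Standard errors and p values rest on a spread pooled over the samples of all 9 conditions. For a given probe this can be smaller or larger than the spread within days 16 and 5. Whether the sets follow the cultures was not tested. The sets were found after the data had been seen, and the counts below are given also with the 2 set means of each condition in place of its 3 replicates.

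Between day 5 and day 16 few genes changed more than 2-fold. A call required a change of more than 2-fold together with an adjusted p value under 0.05 (limma, Benjamini-Hochberg adjustment over all probes). By this rule 25 of 5371 probes (0.465%) were called, 7 of them higher on day 16 (0.13%) and 18 lower (0.335%). No probe changed more than 2-fold without also passing the adjusted p value. The smallest called change was -1.02 on the log2 scale, and the largest change that passed the adjusted p value but not the fold criterion was -0.94. The 2 set means of each condition regroup the same arrays and leave the fold changes of the called probes as they were. No further probe could thus be called with them, and only the p values could change. All 25 probes still passed, with adjusted p values up to 0.0422.

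Small changes were far more frequent than large ones. Without the fold criterion 2180 probes (40.6%) passed the adjusted p value, 1084 of them higher (20.2%) and 1096 lower (20.4%) on day 16. The median size of the change over all probes was only 0.13 on the log2 scale, and its 95th percentile was 0.45. With the 2 set means this count dropped to 558 probes, 258 higher and 300 lower. Without the replicate of each day whose arrays disagreed it was 1449. At a 1.5-fold criterion the balance tilted toward lower levels on day 16, with 26 probes higher and 89 lower.

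**Figure D1:**
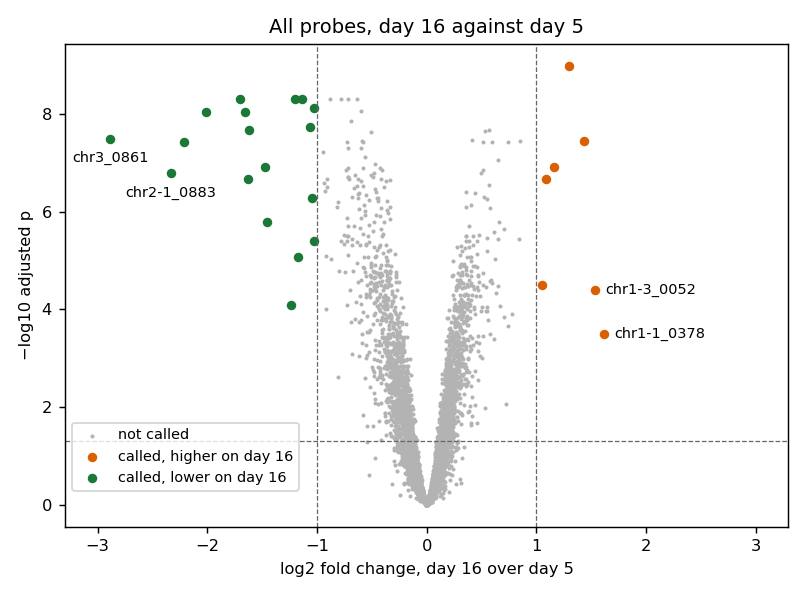
All 5371 probes by log2 fold change of day 16 over day 5 (x axis) and −log10 of the adjusted p value (y axis), with dashed lines at a 2-fold change and at an adjusted p of 0.05. The 7 called rises are orange, the 18 called falls green, and the cloud of small significant changes lies between the vertical lines.

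The array files pair each probe with a locus tag but not with a gene name or a function. The reference gene table of strain GS115 (RefSeq, assembly ASM2700v1) gives locus tags in place of symbols, and matched 5040 of the 5371 probes and 23 of the 25 called ones. No role can therefore be given to the genes below, and the 2 largest changes in each direction are identified by probe name only. The culture signal of all 25 called probes was well above background on all 12 arrays, and their replicates did not overlap between the days. Lack of overlap on its own was common, at 56.5% of all probes.

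The largest fall was that of Pipas_chr3_0861. Its log2 ratio was -3.23, -2.43 and -1.63 in the 3 replicates of day 16, against 0.96, 0.03 and 0.38 on day 5. Every day 16 replicate lay well below every day 5 replicate, although the replicates of either day were spread widely. The change was -2.88 ± 0.26 (standard error), a 7.38-fold decrease, with an adjusted p of 3.18e-08. In a limma fit of only the 6 replicates of both days the standard error was 0.35 and the adjusted p 0.000283. With the 2 set means of each condition they were 0.41 and 0.00129. Most of the spread lay between the sets of arrays described above. On day 16 the arrays read -3.34 and -3.11 in replicate 1, -1.61 (Cy3) and -3.24 (Cy5) in replicate 2, and -1.64 and -1.61 in replicate 3. On day 5 they read 0.92 and 1 in replicate 1, 0.1 and -0.05 in replicate 2, and -0.25 (Cy3) and 1.01 (Cy5) in replicate 3. The gene was thus low on all 6 arrays of day 16 and higher on all 6 of day 5, and the size of the decrease differed between arrays.

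Pipas_chr2-1_0883 had the next largest fall. Its log2 ratio was -2.82, -2.43 and -1.86 on day 16, against 0.56, -0.61 and -0.08 on day 5. Here too no day 16 replicate reached the lowest of day 5, and replicate 1 was the lowest of its day on day 16 and the highest on day 5. The change was -2.33 ± 0.24 (standard error), a 5.03-fold decrease with an adjusted p of 1.65e-07. With only the 6 replicates of both days in the limma fit, the standard error was 0.28 and the adjusted p 0.000299. With set means they were 0.31 and 0.00122. The raw culture signal of this probe was between 352 and 890 scanner units on the arrays of day 16, against 1280 to 7990 on those of day 5.

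The other 16 called falls ranged from -2.21 to -1.02. For all 18, the mean log2 ratio on day 16 lay between -5.07 and 0.19. The SD of the replicates had a median of 0.18 on day 16 and of 0.32 on day 5, above the values of 0.0581 and 0.0535 over all probes. Replicate 1 was the lowest of the 3 replicates of day 16 for 15 of the 18 falls. The mean of the set of arrays that holds replicate 1 was below that of the other set on day 16 for 16 of the 18, and above it on day 5 for 13 of the 18. The same counts over all probes were not taken, so these describe the called falls only.

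**Figure D2:**
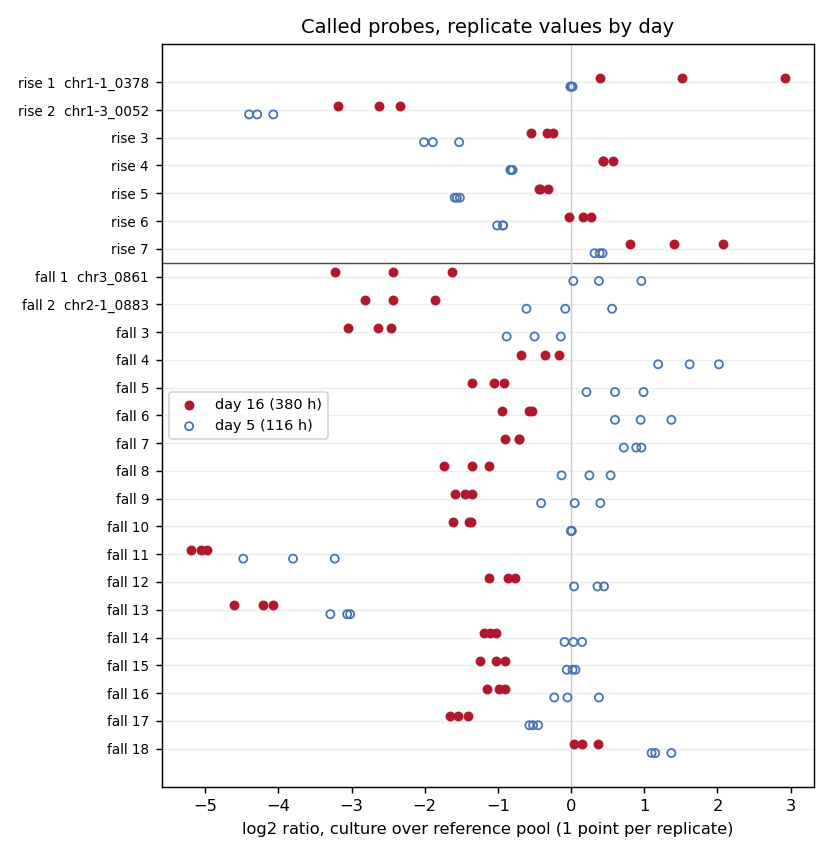
Log2 ratio of culture over pool (x axis) for each called probe (rows), with 3 replicates of day 16 (filled red points) above 3 replicates of day 5 (open blue points). Rises are ranked above the line and falls below it, the 2 largest of each are named, and in no row do the days overlap.

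Fewer genes rose, and the 2 largest rises had uneven replicates. Pipas_chr1-1_0378 had log2 ratios of 2.92, 1.52 and 0.4 in the replicates of day 16, against -0.01, 0.02 and 0 on day 5. All day 5 replicates sat at the level of the pool, and the replicates of day 16 were spread over more than 2 units above it. The change was 1.61 ± 0.32 (standard error), a 3.06-fold increase with an adjusted p of 0.000322. On single arrays of day 16 the ratio was 2.93 and 2.92 in replicate 1, 0.44 (Cy3) and 2.6 (Cy5) in replicate 2, and 0.37 and 0.44 in replicate 3. Of the 6 day 16 arrays, 3 thus stood at 2.6 or more and the others at 0.44 or less, whereas the 6 arrays of day 5 lay between -0.07 and 0.1. Without replicate 1 of day 16 the change was 0.96, below the 2-fold criterion, and a test against a 1.5-fold change (treat in limma) gave an adjusted p of 0.322. With 2 set means per day the adjusted p was 0.0422.

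Pipas_chr1-3_0052 had log2 ratios of -2.34, -2.63 and -3.19 on day 16, against -4.4, -4.07 and -4.29 on day 5. It was far below the pool on both days and less so on day 16. The change was 1.53 ± 0.25 (standard error), a 2.9-fold increase with an adjusted p of 3.95e-05. This was a dim probe, with culture signals of 213 to 1220 scanner units on day 16 and 113 to 296 on day 5. The estimate for this probe depended on the processing. It was 1.85 with a normexp offset of 0 and 2.05 with the log ratio of the scanner software. With outlier spots kept it was 1.84, and with a slide term 1.2. Tested against a 1.5-fold change its adjusted p was 0.099.

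The other 5 rises ranged from 1.05 to 1.44. The smallest, Pipas_chr3_0337, was singled out after its values were seen because its day 16 arrays split in the same way. Its log2 ratio was 2.08, 1.41 and 0.81 on day 16, against 0.43, 0.32 and 0.39 on day 5. Within day 16 the arrays of replicate 2 read 0.82 (Cy3) and 2 (Cy5), that is, close to replicate 3 on one array and close to replicate 1 on the other. Without replicate 1 of day 16 the change dropped to 0.73, which ended the call, and the adjusted p against a 1.5-fold change was 0.801. Replicate 1 was the highest of the 3 replicates of day 16 for 6 of the 7 rises, a count that was not taken over all probes. Across the 25 called probes the 2 set means differed more than 2-fold for 3 probes on day 16 and for 3 on day 5. Both set means of day 16 lay on the same side of both set means of day 5 for all 25. The set means regroup the arrays that gave the calls, so the 2-fold criterion favored this. The share over all probes was not taken.

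**Figure D3:**
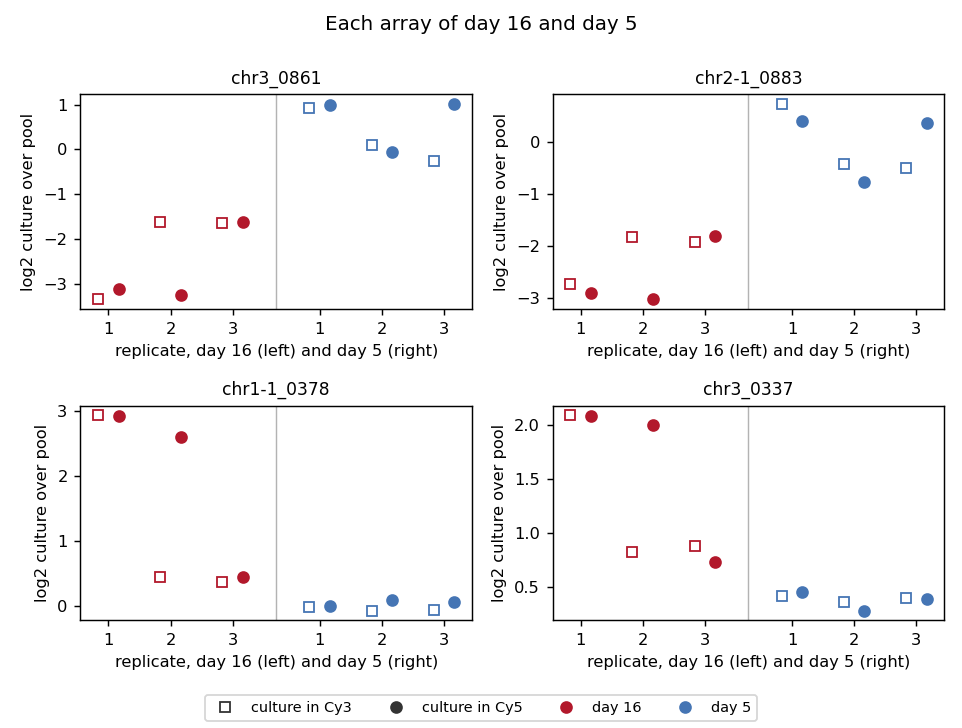
Log2 ratio of culture over pool on each array of day 16 (red, left) and day 5 (blue, right), for the 2 largest falls, the largest rise and Pipas_chr3_0337. Squares have the culture in Cy3 and circles in Cy5, and in all 4 panels the Cy5 array of day 16 replicate 2 stands with replicate 1 and its Cy3 array with replicate 3.

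Some called genes were neighbours. On chromosome 3, in the gene order of the RefSeq table, 3 of 4 consecutive genes fell: Pipas_chr3_0858, Pipas_chr3_0860 and Pipas_chr3_0861. These were also singled out after their values were seen. Pipas_chr3_0858 had log2 ratios of -0.68, -0.36 and -0.16 on day 16, against 2.02, 1.19 and 1.62 on day 5, a change of -2.01 ± 0.17 (standard error, adjusted p = 9.24e-09). Pipas_chr3_0860 had log2 ratios of -0.95, -0.57 and -0.54 on day 16, against 1.37, 0.6 and 0.95 on day 5, a change of -1.66 ± 0.14 (standard error, adjusted p = 9.24e-09). The gene between them, Pipas_chr3_0859, had a change of -0.08 (adjusted p = 0.177), and the gene on the far side of Pipas_chr3_0861, Pipas_chr3_0862, one of 0.02 (adjusted p = 0.853). The decrease was therefore interrupted within the run and not seen in the next gene. Chromosome 3 held 10 of the 23 called probes with a position and 1198 of the 5040 matched probes, chromosome 1 held 7 called and 1538 matched probes, chromosome 4 held 5 and 971, and chromosome 2 held 1 and 1333.

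Genes near chromosome ends made up 7 of the 22 moderate rises among matched probes. Among matched probes, 22 of 5040 (0.437%) were higher on day 16 by more than 1.5-fold with an adjusted p below 0.05, and 87 (1.73%) were lower. Within 20 genes of a chromosome end, 7 of 160 (4.38%) were higher and 3 (1.88%) lower. The distance of 20 genes was chosen after the values were seen, so these shares are a description without a test, and the gene order is that of GS115. Over all matched probes, both members of 6 pairs of direct neighbours passed the 1.5-fold criterion, and in 5 of these pairs they moved in the same direction. Among the pairs were Pipas_chr2-2_0011 with Pipas_chr2-2_0012 and Pipas_chr3_0018 with Pipas_chr3_0019. These probes are also among the rises near chromosome ends, which are thus not all separate positions.

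A further pair of falls, again chosen after the values were seen, had nearly the same profile. Pipas_c034_0002 had log2 ratios of -0.71, -0.71 and -0.9 on day 16, against 0.72, 0.89 and 0.96 on day 5. Pipas_chr3_0002 had log2 ratios of -1.39, -1.37 and -1.61 on day 16, against 0, 0.01 and 0 on day 5. Both were lower on day 16 by a similar amount, -1.63 and -1.46, and their replicate averages differed little within a day. The dye-swapped arrays behind these averages differed more. In replicate 2 of day 16 they read -1.16 (Cy3) and -0.26 (Cy5) for Pipas_c034_0002, and -1.86 and -0.88 for Pipas_chr3_0002. With set means in the limma fit the adjusted p values were 0.0138 and 0.0217. Across the 9 condition means their ratios correlated at r = 0.999. Whether the 2 probes detect the same or closely similar transcripts was not tested, so they cannot be counted as independent genes.

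The position of the change within the whole run was described with the other retentostat days, which share samples with the comparison of days 16 and 5. Most of the called falls had come up before day 5. By the paper's methods, the chemostats ran in bioreactors of another make, volume and stirring speed than the retentostats. A level relative to a chemostat, here and below, carries this difference together with that of the growth rate. Relative to the chemostat at 0.1 per h, the log2 fold change of the 18 falls had a median of 0.97 at 21 h, 1.52 at 65 h, 1.78 at 116 h (day 5), 0.18 at 380 h (day 16) and 0.07 at 545 h. Of the 5 days, day 5 had the highest mean for 12 of the 18. Day 23 had the lowest mean for 14 and day 16 for the other 4. Selection of the probes by their fall after day 5 favors a high day 5, so this is a description of the called probes only. On day 16, 8 of the 18 falls passed the adjusted p value as higher and 5 as lower than at 0.1 per h, where 45.9% of all probes were higher and 38.2% lower. On day 5, 14 of the 18 were higher and 1 lower than at 0.1 per h, against 43.9 and 39.5% of all probes.

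The 7 rises took another course. Relative to 0.1 per h their median was 0 at 21 h, 0.51 at 65 h, 0.52 at 116 h, 1.57 at 380 h and 2.18 at 545 h, and day 23 had the highest mean for 6 of the 7. The exception was Pipas_chr1-1_0378, whose mean log2 ratio was -0.43 ± 0.23, -0.46 ± 0.13, 0 ± 0.013, 1.62 ± 1.3 and 0.83 ± 0.089 at 21, 65, 116, 380 and 545 h (SD, n = 3 each). The large spread was confined to day 16 among the 5 days for this gene. Pipas_chr3_0861 in turn averaged -1.43 ± 0.18, -0.35 ± 0.26, 0.45 ± 0.47, -2.43 ± 0.8 and -3.39 ± 0.086 at these 5 times (SD, n = 3 each), and its means in the 4 chemostats lay between -3.59 and -2.35. It thus rose over the first 5 days, and on days 16 and 23 its means were at or below the upper end of the chemostat values.

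Fewer probes passed these criteria between days 16 and 23. For day 23 over day 16, 247 probes (4.6%) passed the adjusted p value and 1 was called at 2-fold. Among the 18 falls the change from day 16 to day 23 had a median of -0.21 and ranged from -0.97 to 0.15, where 2.05% of all probes passed the adjusted p value as higher on day 23 and 2.55% as lower. The one that passed was Pipas_chr3_0861, which had a change of -0.97 ± 0.26 (standard error, adjusted p = 0.037). Among the 7 rises the median was 0.4 with a range from -0.79 to 0.83, and 2 passed as higher on day 23. In the shorter interval before, day 5 over day 3, 0 probes were called at 2-fold and 618 passed the adjusted p value in limma.

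**Figure D4:**
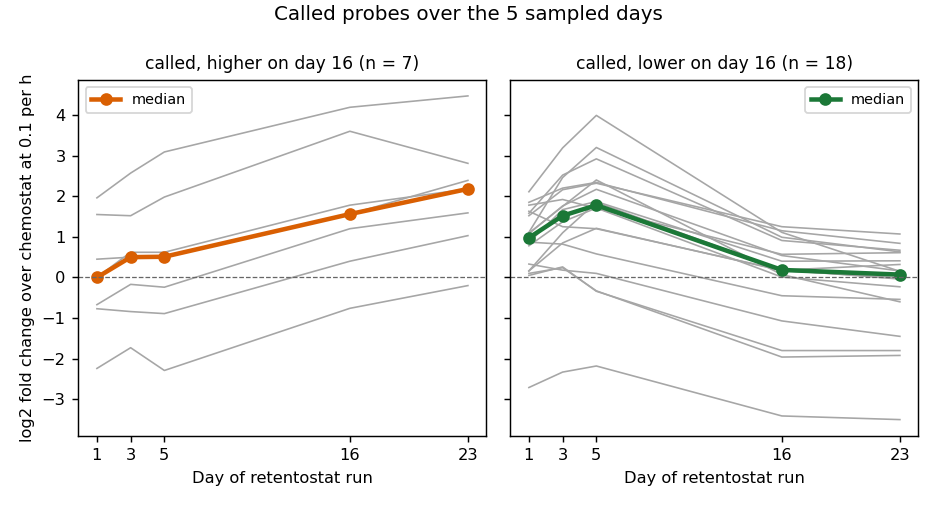
Log2 fold change over the chemostat at 0.1 per h (y axis) on the 5 sampled days (x axis), for the 7 called rises (left) and the 18 called falls (right). Each gray line is the mean of 3 replicates of 1 probe and the thick line is the median over probes, which for the falls stood at 0.18 on day 16 and at 1.78 on day 5.

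A pair of contrasts that share no array with days 16 and 5 was used to ask how the called genes behaved between other growth rates. One is day 3 over day 1, an earlier decline of the growth rate in the retentostat. The other is the chemostat at 0.025 over that at 0.1 per h, which compares separate steady-state cultures. Days 3 and 1 may still come from the same runs as days 16 and 5. The falls mostly ran the other way there. Of the 18 falls, 11 were higher on day 3 than on day 1 at an adjusted p below 0.05 and 1 was lower, where 22.2% of all probes were higher and 22.4% lower. Their median change from day 1 to day 3 was 0.61. In the chemostats, 10 of the 18 were higher at 0.025 than at 0.1 per h and 1 was lower, against 36.6 and 27.1% of all probes, with a median of 0.42. The largest fall, Pipas_chr3_0861, was higher by 1.08 ± 0.26 on day 3 over day 1 (adjusted p = 0.00183) and by 1.19 ± 0.26 at 0.025 over 0.1 per h (adjusted p = 0.000404, standard errors).

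The rises were mixed in the same contrasts. From day 1 to day 3, 3 of the 7 were higher and none lower at an adjusted p below 0.05. At 0.025 over 0.1 per h, 1 was higher and 3 were lower. Pipas_chr1-3_0052, with an increase of 1.53 on day 16 over day 5, had a change of -2.07 ± 0.25 at 0.025 over 0.1 per h (standard error, adjusted p = 1.47e-07) and was thus lower in the slower chemostat.

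**Figure D5:**
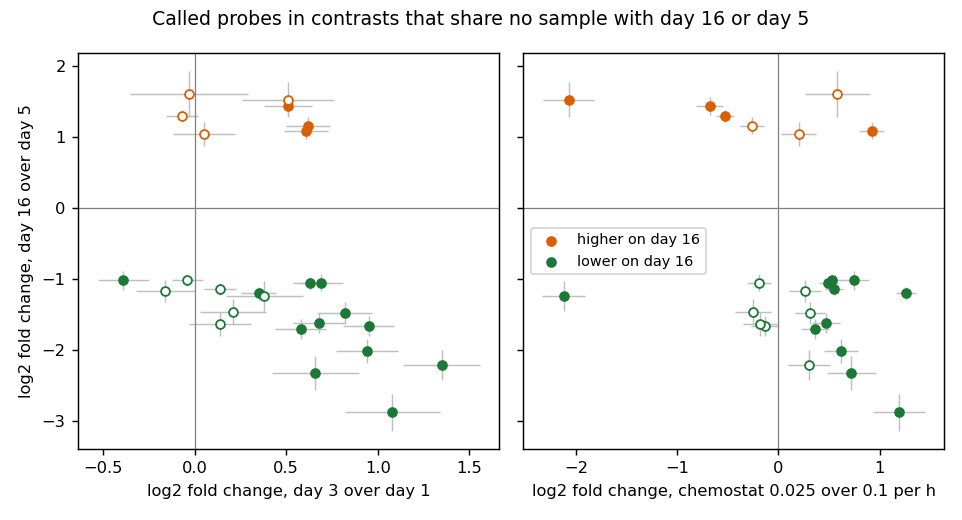
Log2 fold change of day 16 over day 5 (y axis) against that of day 3 over day 1 (left) and of the chemostat at 0.025 over 0.1 per h (right) for the 25 called probes, with standard errors. Filled points have an adjusted p below 0.05 in the contrast on the x axis, and 11 (left) and 10 (right) of the 18 falls are filled points to the right of the vertical zero line.

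For the many small changes the directions in these contrasts were mixed. Of the 1084 probes that were higher on day 16 than on day 5 without the fold criterion, 19.5% were higher and 12.9% lower on day 3 than on day 1. Of the 1096 that were lower, 23.4% were higher and 32.6% lower. The same direction was thus more frequent than the opposite one in both groups of probes, where 22.2 and 22.4% of all probes were higher and lower. For the chemostats at 0.025 over 0.1 per h, 32.7% of the 1084 were higher and 28.8% lower, and 44.3% of the 1096 were higher and 23.3% lower, against 36.6 and 27.1% of all probes. Here the probes that were lower on day 16 had the opposite direction more often than the same one. Across all 5371 probes, which share the pool and are not independent, the change from day 5 to day 16 correlated at r = 0.024 with that from day 1 to day 3 and at r = -0.098 with that in the chemostats. Without the 25 called probes these values were 0.074 and -0.083.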

How the data were processed

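The authors deposited scanner output of 2-color arrays (Agilent Feature Extraction 11.5.1.1) which holds the median signal and background of each spot as intensities and a log10 ratio by the scanner software. Also deposited was a table of log2 ratios, made with normexp, LOESS and Aquantile, of which 18 of 54 columns ran as pool over culture. It served only as an alternative. Median signals were background corrected (normexp, offset 50) and LOESS normalized in limma 3.58.1 under R 4.3.3 (statmod 1.5.0). Control spots (536 per array) and spots with an outlier mark (0.676%) were left out, and the outlier marks left no missing value for any called probe on either day. Spots were averaged per probe, ratios turned to culture over pool by the labelled dyes, and the 2 arrays of a replicate averaged. A model with 9 condition means was fitted to 27 replicates (18 residual and 5.38 prior degrees of freedom). The p values were moderated and adjusted over 5371 probes. The number of arrays limits the precision.

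The members and lists were chosen with earlier results of these data known. The rule for names took the 15 largest rises and falls among called probes that were above background on all arrays of the higher day and had no overlap between replicates. Only those with an annotated function were to be described, with at most 2 others per direction by identifier. No table used here gives a function, so gene lists by function were not tested, and the probe of FLO8 was not picked out. Replicate numbers were not used to pair days 16 and 5. Deviations of same-numbered replicates from the mean of their day correlated at -0.28, -0.04 and -0.0075, and those of different numbers at -0.36 to 0.42. Some replicates average arrays of both sets, so these values cannot decide whether the days share runs. Fits were checked on simulated arrays.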

Additional observations from a re-analysis of the deposited data

Results flagged for a closer look

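Several called genes changed in opposite directions in the 2 systems. For 13 of the 25 called probes, the change of day 16 over day 5 and that of the chemostat at 0.025 over 0.1 per h had opposite signs and both passed the adjusted p value. Of all 2180 probes that passed it between days 16 and 5, this held for 797 (36.6%). With 2 set means per condition it held for 10 of the 25. The difference between the changes was -4.08 on the log2 scale for Pipas_chr3_0861, -3.05 for Pipas_chr2-1_0883 and 3.6 for Pipas_chr1-3_0052.

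For 11 of the 25, all of them falls, the change of day 16 over day 5 was likewise opposite to that of day 3 over day 1, against 396 of the 2180 (18.2%), and with set means this held for 8. The difference was -3.97 for Pipas_chr3_0861 and -2.99 for Pipas_chr2-1_0883. A difference between a pair of opposite changes that both passed will itself pass nearly always, so these values are a description without a test.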

How the results depend on the processing

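The 25 calls kept their direction under every alternative fitted to the scanner output. In several alternatives this was given in advance, because the fold changes stay the same and only the p values or thresholds differ. These are the fits of fewer conditions, arrays singly with a dye term, the set means and the changed thresholds. The number called stayed within 1.5 times with a normexp offset of 0, without background correction, with median centring, with outlier spots kept, in fits of fewer conditions, with arrays fitted singly and with slide or scanner terms. It was 39 with the log ratio of the scanner software, 15 of them higher, and 115 at 1.5-fold, 26 higher and 89 lower. A test against a 1.5-fold change (treat) called 19, 4 higher and 15 lower, of which 18 were among the 25. The 7 lost include Pipas_chr1-1_0378 (adjusted p = 0.322), Pipas_chr1-3_0052 (0.099) and Pipas_chr3_0337 (0.801). At an adjusted p below 0.01, 702 probes were higher without the fold criterion. The processed table as deposited gave 0 calls, 0 higher and 0 lower, 0 probes past the adjusted p value (limma, 4 at an unadjusted p below 0.05) and 0 for the counts in the contrasts without shared samples, with -0.33 for Pipas_chr1-1_0378 and -0.12 for Pipas_chr3_0337. With its 18 pool-over-culture columns turned, an alternative added after seeing the data, it gave 26 calls that include all 25. The other 2 added alternatives were the 2 set means per condition, with 25 calls and 558 probes past the adjusted p value (258 higher, 300 lower), and the omission of the replicate of each day whose arrays disagree, with 25 calls and 1449 past it (698 higher). The single fall that was also lower on day 3 than on day 1 was lost (0) with median centring, in the fit of the 15 retentostat replicates, with the slide term, at an adjusted p below 0.01 and with set means.

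When 1 of the 6 replicates was left out, 20 to 27 probes were called, 5 to 7 higher and 15 to 20 lower, and 1599 to 2067 passed the adjusted p value, 795 to 988 higher and 804 to 1079 lower. The falls higher on day 3 than on day 1 numbered 11 throughout (1 lower), and those higher at 0.025 than at 0.1 per h 10 to 11 (1 lower). With the replicate number as a block the counts were 25 and 2155. Within the slide that holds replicate 1 of both days, without a test, all 25 changes had the same sign and exceeded 2-fold, where 50 of all 5371 probes exceeded 2-fold. The calls themselves used these replicates, so this is no independent check. Gene lists by function were not run.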
